A study of Mus musculus with 4 samples.

Results

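The transcripts described here are those of 10 genes that the transcription factor p53 activates directly, out of 55357 genes in the deposited count matrices: Cdkn1a, Mdm2, Ccng1, Phlda3, Bax, Bbc3, Trp53inp1, Zmat3, Eda2r and Gadd45a. They were chosen by symbol, and all 10 were found, each with UMIs (unique molecular identifiers, counted as single transcript molecules) in all 4 libraries. The libraries are single-cell RNA-seq of LSK cells from mouse bone marrow, a sorted population without mature lineage markers and with surface Sca-1 and Kit, in which stem cells and multipotent progenitors are found. All mice were wild type. Mice of the Yoda1 group were given the Piezo1 agonist Yoda1, which opens this force-gated ion channel, by the intraperitoneal route over 2 weeks, and Control mice were given vehicle. Each group has 2 libraries. The labels give no age, sex, dose or number of mice, and whether each library is a separate animal is not stated in them, so p-values here reflect the spread of these libraries alone, which may be technical.

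p53 is held at low levels in unstressed cells by the ubiquitin ligase Mdm2 and by its relative Mdm4. When DNA is damaged or growth signals are abnormal, p53 accumulates, binds paired half-sites in the DNA of its targets and raises their transcription. The products stop the cell cycle, promote apoptosis, change RNA and survival signalling, or feed back on p53 itself, and in haematopoietic stem cells p53 is known for its part in quiescence and in the response to irradiation.

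RefSeq (GRCm38.p6) gave promoter windows for 8 of the 10 genes, all but Trp53inp1 and Zmat3, and the 250 bases before each start were searched for the p53 half-site, a 10-base motif that reads the same on both strands. It was present in 5 of 11 windows, those of 5 genes. Over all 32851 windows of that length in the table, 7.13% held it. The first of 2 Cdkn1a windows is shown whole (chr17:29090729-29090978, plus strand). It was the only one of these 11 with 2 half-sites, which are in capitals.
Cdkn1a: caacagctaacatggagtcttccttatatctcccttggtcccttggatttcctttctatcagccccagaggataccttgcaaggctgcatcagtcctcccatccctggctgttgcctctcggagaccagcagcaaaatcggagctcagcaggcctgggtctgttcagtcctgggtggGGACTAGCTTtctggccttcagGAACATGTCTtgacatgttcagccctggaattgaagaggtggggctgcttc
At a spacing of up to 13 bases, 2 half-sites occurred in 21 of the 32851 windows (0.0639%), this Cdkn1a window among them. The second half-site in this window is followed at once by a 10-base run that misses the motif at 1 base, giving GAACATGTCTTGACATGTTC (chr17:29090928-29090947). With no spacer and 1 mismatch allowed, 25 of the windows (0.0761%) held a pair of half-sites, among them this Cdkn1a window and that of Ccng1. The half-sites of the other 4 genes are shown in 30 bases of context, again in capitals.
Mdm2 (chr10:117710925-117710954, minus strand): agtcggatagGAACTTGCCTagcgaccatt
Ccng1 (chr11:40755452-40755481, minus strand): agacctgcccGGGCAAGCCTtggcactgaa
Bax (chr7:45467080-45467109, minus strand): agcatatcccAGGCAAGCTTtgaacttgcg
Gadd45a (chr6:67037428-67037457, minus strand): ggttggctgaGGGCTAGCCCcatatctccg
No half-site lay in the searched bases of Phlda3, Bbc3 and Eda2r, or in the second Cdkn1a window (chr17:29093519-29093768). This says only that these letters are not in these windows.

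Cells were kept with 500 or more genes, 1000 or more UMIs and a mitochondrial share of UMIs of no more than 10%. The Yoda1 libraries held 9122 and 9756 cells and the Control libraries 7620 and 7822, with 89058521 to 110493533 UMIs per library. Of 34201 distinct barcodes among the kept cells, 119 (0.348%) occurred in more than 1 library. Kit was detected at 105 and 156 CPM in the Yoda1 libraries, against 98.4 and 129.7 CPM in the Control libraries, and Ly6a, which encodes Sca-1, at 262 and 114, against 113 and 97.9 CPM in the same order. CPM are the UMIs of a gene per 1000000 UMIs of the cells summed. Cells were assigned to 11 gates by marker lists (the highest mean scaled level, at least 3 markers detected), and the 9 with at least 50 cells in every library were tested. Rankings of gates are over these 9. A gate is a range of a score and not a cell type: of the 945 cells in the HSC gate of Yoda1 replicate 1, for example, 773 also met the detection minimum of another list. Yoda1 replicate 2 stood apart in its mix. The HSC gate (haematopoietic stem cell markers) held 10.4% and 34.02% of the Yoda1 cells, against 6.51% and 9.26% of the Control cells, and the Erythroid gate 16.4% and 2.91%, against 23.2% and 14.1%.

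Yoda1 was first compared with Control over all kept cells, and none of the 10 transcripts passed the test. Cdkn1a, which encodes the cyclin-dependent kinase inhibitor p21 (chr17:29090976-29100727), was at 25.3 and 22.6 CPM in the Yoda1 libraries, against 19.7 and 30.2 CPM in the Control libraries. Ccng1, which encodes the atypical cyclin G1 (chr11:40748552-40755311), was at 24.9 and 24.8 CPM in the Yoda1 libraries, against 29.3 and 22.8 CPM in the Control libraries. For both genes the groups overlapped, with log2 fold changes of -0.08 ± 0.24 (SE) and -0.12 ± 0.22. Mdm2, the ligase that marks p53 for degradation (chr10:117688875-117710758), was at 27.4 and 35.4 CPM in the Yoda1 libraries, against 28.4 and 31.1 CPM in the Control libraries. This feedback gene also overlapped between the groups (0.02 ± 0.16).

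None of the genes of the apoptotic arm passed the test either. Bax, which encodes a pore-forming protein of the mitochondrial outer membrane (chr7:45461697-45466898), was at 156 and 118 CPM in the Yoda1 libraries, against 147 and 144 CPM in the Control libraries, a log2 fold change of -0.12 ± 0.24. Bbc3, which encodes the BH3-only protein Puma (chr7:16308393-16318205), was at 10.2 and 16.3 CPM in the Yoda1 libraries, against 11.9 and 11.96 CPM in the Control libraries. Its 2 Yoda1 values lay on either side of both Control values. Phlda3, which encodes a repressor of Akt signalling (chr1:135766119-135769136), showed the same arrangement, at 6.37 and 10.7 CPM in the Yoda1 libraries, against 7.70 and 8.11 CPM in the Control libraries. Eda2r, a receptor of the tumour necrosis factor receptor family (chrX:97333840-97377216), was close to the detection limit, with 22 to 31 UMIs per library, at 0.281 and 0.276 CPM in the Yoda1 libraries, against 0.272 and 0.247 CPM in the Control libraries. Both its Yoda1 values were above both Control values.

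Trp53inp1, which encodes a nuclear stress protein that acts in autophagy and p53 signalling (chr4:11156431-11174379), differed between libraries of 1 group, at 7.55 and 19.1 CPM in the Yoda1 libraries, against 7.43 and 12.8 CPM in the Control libraries. Replicate 2 was the higher one in both groups. The log2 fold change of 0.32 ± 0.40 became -0.20 when every gate was given equal weight in each library, a value with no test. Zmat3, which encodes an RNA-binding zinc finger protein (chr3:32334792-32366014), was at 2.31 and 3.03 CPM in the Yoda1 libraries, against 3.14 and 3.25 CPM in the Control libraries. Its Yoda1 values were below both Control values (-0.32 ± 0.29).

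Gadd45a, which encodes a growth arrest protein that binds the replication clamp PCNA (chr6:67035096-67037457), was at 14.2 and 18.5 CPM in the Yoda1 libraries, against 24.3 and 26.02 CPM in the Control libraries. Both Yoda1 libraries were below both Control libraries, with means of 16.4 ± 3.01 CPM in Yoda1 and 25.2 ± 1.21 CPM in Control (SD, n = 2 each). The log2 fold change of -0.68 ± 0.17 had an unadjusted p of 0.00635 in edgeR's quasi-likelihood test and an adjusted p of 1 over 18182 genes, so it did not pass. The Erythroid gate, where Gadd45a was highest, held 16.4% and 2.91% of the Yoda1 cells, against 23.2% and 14.1% of the Control cells. The part of the gate mix in the Gadd45a values was not tested. With equal weight for each gate the log2 fold change was -0.47, a value with no test. The fitted value stayed between -0.75 and -0.61 when each library was left out in turn. In all, 2 of the 10 genes (Zmat3 and Gadd45a) were lower in both Yoda1 libraries than in both Control libraries, an arrangement found for 9.95% of all genes tested, and 1 (Eda2r) was higher in both, as were 9.4% of all genes. edgeR called 0 of the 10, and 0 of 18182 genes (0.0%), with 309 genes at an unadjusted p under 0.05, and limma-voom called 0 and DESeq2 4 genes, none of them among the 10. The median log2 fold change of the 10 was -0.03, beside 0.01 over all genes tested.

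**Figure D1:**
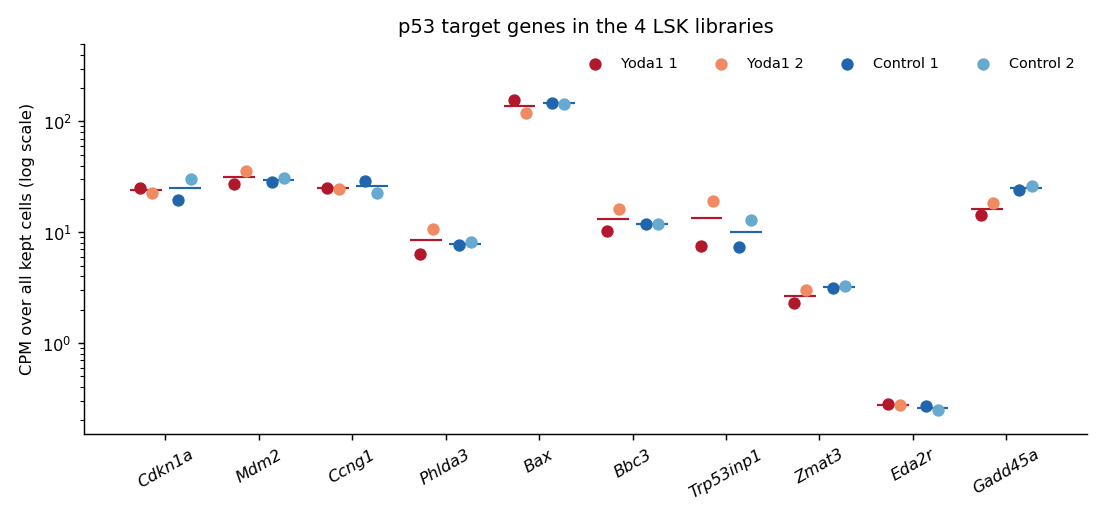
Level of the 10 p53 target genes in each library, in CPM over all kept cells on a log axis, with Yoda1 libraries left (red and orange) and Control libraries right (dark and light blue) for each gene; lines are group means. Gadd45a lies lower in both Yoda1 libraries, at 14.2 and 18.5 CPM in the Yoda1 libraries, against 24.3 and 26.02 CPM in the Control libraries, and in Trp53inp1 the libraries of a group lie further apart than the group means.

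Since the sums over all cells also follow the mix of gates, each gate was tested on its own. No member passed in any of the 9 gates, where edgeR called 0 to 4 genes per gate (0.0512% of 7808 genes in the T/NK/innate lymphoid gate, 0.0353% in the MHC class II dendritic gate, 0.0151% in the Monocyte gate and 0.0% in the other 6). The mean of Gadd45a was lower in Yoda1 in 9 of 9 gates, which held for 4.65% of the 8496 genes averaging 10 CPM or more. In the Erythroid gate, where its level was highest, Gadd45a was at 38.8 and 52.6 CPM in the Yoda1 libraries, against 53.99 and 72.1 CPM in the Control libraries. Both Yoda1 values lay below both Control values (-0.48 ± 0.17, edgeR unadjusted p = 0.0259). The groups also did not overlap in the MHC class II dendritic, T/NK/innate lymphoid and Monocyte gates, which makes 4 gates in all, while 16.5%, 17.3%, 21.8% and 19.4% of all genes were lower in both Yoda1 libraries in the Erythroid, MHC class II dendritic, T/NK/innate lymphoid and Monocyte gates. In the T/NK/innate lymphoid gate, the smallest of the 9 with 51 to 121 cells per library, Gadd45a was at 14.4 and 8.26 CPM in the Yoda1 libraries, against 32.6 and 29.2 CPM in the Control libraries (-1.47 ± 0.42, edgeR adjusted p = 0.251). Without Control replicate 2 the log2 fold change of Gadd45a was above 0 in the HSC, Lymphoid-primed and Mast/basophil gates (0.0630, 0.16 and 0.15).

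Cdkn1a in the HSC gate was at 15.4 and 16.7 CPM in the Yoda1 libraries, against 19.2 and 32.3 CPM in the Control libraries (-0.69 ± 0.23, edgeR unadjusted p = 0.0207, adjusted p = 1). Both Yoda1 values were again below both Control values, as were those of 13.4% of the genes tested there, and Control replicate 2 was the highest. Phlda3 in the MHC class II dendritic gate lay the other way, at 10.4 and 10.3 CPM in the Yoda1 libraries, against 6.62 and 5.56 CPM in the Control libraries (0.74 ± 0.32, edgeR adjusted p = 0.553), with both Yoda1 libraries above both Control libraries, as for 21.5% of genes. Trp53inp1 in the T/NK/innate lymphoid gate was at 16.2 and 20.1 CPM in the Yoda1 libraries, against 28.2 and 37.6 CPM in the Control libraries. It did not pass the test (-0.85 ± 0.35, edgeR adjusted p = 0.475). Both Yoda1 values were below both Control values, as for 21.8% of genes in that gate. The values rest on 9 and 17 UMIs in Yoda1, against 13 and 36 UMIs in Control. Over the 9 gates Trp53inp1 was lower in both Yoda1 libraries in 2 and higher in both in 1. The latter was the MHC class II dendritic gate, at 13.2 and 16.6 CPM in the Yoda1 libraries, against 9.79 and 12.97 CPM in the Control libraries. A test of whether the Yoda1 difference varied between gates called 63 of 14037 genes (0.449%) and 0 of the 9 members tested, with the smallest edgeR adjusted p at 0.497, for Bax.

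The regulators of p53 and its other targets were read from lists. Trp53, the gene of p53 itself, was at 187 and 191 CPM in the Yoda1 libraries, against 229.8 and 190.2 CPM in the Control libraries, with overlapping groups (-0.20 ± 0.21). Mdm4, its second inhibitor, and Ppm1d, the phosphatase that switches the response off, had log2 fold changes of -0.08 ± 0.16 and 0.02 ± 0.17. In edgeR's test 0 of 12 tested regulators, 0 of 35 other targets and 0 of 16 relatives of the members passed, with median log2 fold changes of -0.0235, -0.00460 and -0.08. The immediate early and stress genes, which respond to cell handling, had 0 of 13 called and a median of -0.26, with a summed level of 327 and 735 CPM in the Yoda1 libraries, against 433 and 799 CPM in the Control libraries. Gadd45a is itself a stress-induced gene, and the part of this difference in its values was not tested.

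Members differed between gates, but in most gates the share of them called was near that of all genes tested. Each gate was compared with all other kept cells of the same libraries, and edgeR called 9 of 10 members in the Erythroid gate, where 56.4% of all genes tested were called, 6 in the Lymphoid-primed gate (34.4%), 6 in the Monocyte gate (44.0%), 5 in the HSC gate (47.3%), 5 in the Megakaryocyte gate (40.4%), 3 in the Granulocyte-monocyte gate (33.0%), 2 in the Mast/basophil gate (21.0%), 2 in the T/NK/innate lymphoid gate (14.7%) and 1 in the MHC class II dendritic gate (13.7%). The 10 genes did not move as 1 block: in the Erythroid gate 6 were higher (25.5% of all genes) and 3 lower (30.9%), and in the Lymphoid-primed gate 3 were higher (15.8%) and 3 lower (18.6%). Of these 39 calls, 35 were kept in the same direction with scaling to library size alone, which made 44 calls in all. The 4 that were not kept are Cdkn1a and Phlda3 in the HSC gate (edgeR adjusted p = 0.0549 and 0.135 there), Bax in the Monocyte gate (0.0717) and Zmat3 in the Megakaryocyte gate (0.0783). That scaling moved the median of all genes by 0.21 in the HSC gate, -0.18 in the Monocyte gate and -0.15 in the Granulocyte-monocyte gate, and by less than 0.1 in the others.

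**Figure D2:**
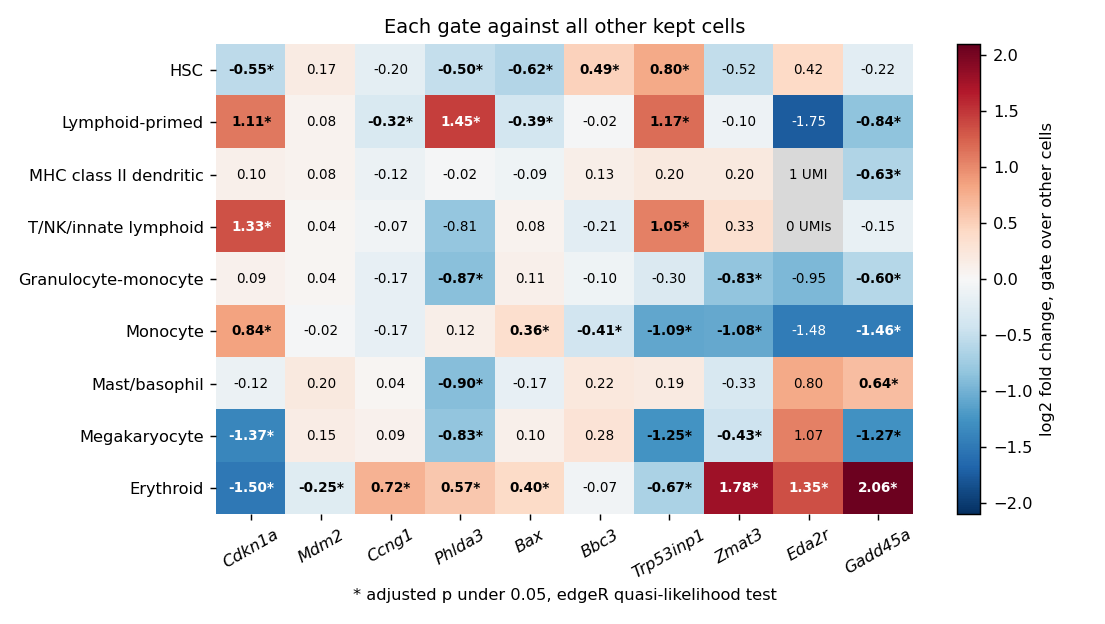
Log2 fold change of each p53 target gene (columns) in each gate over all other kept cells (rows), from edgeR over 4 libraries with library as a block; red is higher and blue lower in the gate, an asterisk and bold type mark an adjusted p under 0.05, and grey cells hold the UMI count where it was 3 or fewer. The Erythroid row runs from 2.06 for Gadd45a to -1.50 for Cdkn1a.

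The cell cycle genes differed in the gates where they were high. Among the 9 tested gates Cdkn1a was highest in the T/NK/innate lymphoid gate (66.5 ± 12.1 CPM, SD over the 4 libraries) and the Lymphoid-primed gate (49.6 ± 13.7), and lowest in the Megakaryocyte (10.5 ± 2.30) and Erythroid (9.30 ± 1.84) gates. In the Lymphoid-primed gate it was at 63.6 and 34.5 CPM in the Yoda1 libraries, against 41.8 and 58.4 CPM in the Control libraries. All 4 values exceeded those of the other cells of the same library (22.5, 18.96, 18.4 and 26.8 CPM), a log2 fold change of 1.11 ± 0.09 (edgeR adjusted p = 2.24e-05). The T/NK/innate lymphoid gate was higher by 1.33 ± 0.16 and the Monocyte gate by 0.84 ± 0.07, while the Megakaryocyte and Erythroid gates were lower (-1.37 ± 0.10 and -1.50 ± 0.06). In the order of mean levels each gate overlapped its neighbour except at 1 step, between the HSC gate (20.9 ± 7.75 CPM) and the Megakaryocyte gate. Cdkn1a overlaps an exon of an unnamed antisense transcript, which held at most 0.245% as many UMIs as Cdkn1a in any library.

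Gadd45a ran the other way in the erythroid cells. It was at 54.4 ± 13.7 CPM in the Erythroid gate, 32.2 ± 7.96 in the Mast/basophil gate and 7.72 ± 2.00 in the Monocyte gate, the lowest of the 9 tested. All 4 Erythroid values were above the highest value of any other tested gate except Control replicate 2 of the Mast/basophil gate (42.4 CPM). The log2 fold changes were 2.06 ± 0.07 (edgeR adjusted p = 1.82e-07) and 0.64 ± 0.12 in the Erythroid and Mast/basophil gates, and -1.46 ± 0.09, -1.27 ± 0.11, -0.84 ± 0.13, -0.63 ± 0.13 and -0.60 ± 0.11 in the Monocyte, Megakaryocyte, Lymphoid-primed, MHC class II dendritic and Granulocyte-monocyte gates. These 7 calls were the most of any member. An antisense gene, E230016M11Rik, overlaps a Gadd45a exon and held up to 10.8% as many UMIs as Gadd45a, so reads of the pair may be mixed if strand was not used in counting. Ccng1 was called in 2 gates, higher in the Erythroid gate (0.72 ± 0.06, 36.7 ± 3.01 CPM) and lower in the Lymphoid-primed gate (-0.32 ± 0.08), a call lost without Control replicate 1 or Yoda1 replicate 1 (edgeR adjusted p = 0.0676 and 0.0750). The Gadd45a call in the MHC class II dendritic gate was lost without Control replicate 1 (edgeR adjusted p = 0.0657).

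Mdm2, the feedback inhibitor, differed little across gates. Its mean levels ran only between 38.8 ± 3.32 CPM in the HSC gate and 25.02 ± 1.37 CPM in the Erythroid gate, with every neighbour in that order overlapping. In the main test it was called once, lower in the Erythroid gate (-0.25 ± 0.05, edgeR adjusted p = 0.00329). With scaling to library size alone it was also called higher in the HSC gate (0.39, edgeR adjusted p = 0.00273). That scaling also called it higher in the Megakaryocyte gate (0.19, 0.0323) and lower in the Monocyte gate (-0.21, 0.0476). Trp53 was higher in the same gate (0.73 ± 0.06), and Mdm4 was higher too (0.21 ± 0.05).

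Among the apoptosis genes, Phlda3 marked the Lymphoid-primed gate, at 19.5 and 18.5 CPM in the Yoda1 libraries, against 20.7 and 19.01 CPM in the Control libraries. These 4 values were above every value of the other 8 tested gates, and the other cells of the same libraries were at 5.42, 8.27, 6.96 and 6.79 CPM. The log2 fold change was 1.45 ± 0.11 (edgeR adjusted p = 1.79e-05). It was lower in the Mast/basophil (-0.90 ± 0.21), Granulocyte-monocyte (-0.87 ± 0.13) and Megakaryocyte (-0.83 ± 0.12) gates. Its calls in the Erythroid gate (higher, 0.57 ± 0.14) and the HSC gate (lower, -0.50 ± 0.14) each depended on single libraries. The first was lost without Control replicate 1, Control replicate 2 or Yoda1 replicate 1 (edgeR adjusted p = 0.0840, 0.0511 and 0.0651), and the second without Yoda1 replicate 1 or 2 (edgeR adjusted p = 0.0622 and 0.0553). Bax was lowest, of the tested gates, in the HSC gate (109 ± 3.91 CPM, -0.62 ± 0.07) and the Lymphoid-primed gate (113 ± 6.56 CPM, -0.39 ± 0.08), and higher in the Erythroid gate (171 ± 4.03 CPM, 0.40 ± 0.08). Bbc3 went the opposite way in the HSC gate, at 19.2 and 19.2 CPM in the Yoda1 libraries, against 19.7 and 19.5 CPM in the Control libraries. All 4 libraries were higher there than in their other cells (9.55, 14.99, 11.6 and 11.5 CPM), and the log2 fold change was 0.49 ± 0.10 (edgeR adjusted p = 0.00280), and of the 9 tested gates Bbc3 was lowest in the Monocyte gate (8.56 ± 1.02 CPM, -0.41 ± 0.09). The 2 death-promoting genes Bax and Bbc3 differed in opposite directions between HSC-gate cells and the rest. Over all kept cells Bbc3 was lower in those with at least 3 of 10 cycling markers than in those with none (-1.29 ± 0.08). Bax was higher in them (0.39 ± 0.06). Within the HSC gate these differences were -1.07 ± 0.14 for Bbc3 and -0.03 ± 0.06 for Bax. The part of cycling in the gate differences of both genes was not tested.

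Eda2r had 34 UMIs in the Erythroid gate, at 0.487 ± 0.0989 CPM in the gate, and was called higher there (1.35 ± 0.34), a call lost without Control replicate 1 (edgeR adjusted p = 0.0823). In the Lymphoid-primed gate it had 4 UMIs and in the MHC class II dendritic gate 1. In the T/NK/innate lymphoid gate it had 0 of 2820392 UMIs, which allows up to 1.06 CPM, so a lower level there was not detectable at this depth. Zmat3 was higher in the Erythroid gate, at 5.59 and 6.85 CPM in the Yoda1 libraries, against 6.44 and 8.13 CPM in the Control libraries. All 4 values were above every value of the other 8 tested gates, and the log2 fold change was 1.78 ± 0.11 (edgeR adjusted p = 3.23e-06). It was lower in the Monocyte and Granulocyte-monocyte gates (-1.08 ± 0.24 and -0.83 ± 0.14). Its call in the Megakaryocyte gate (lower, -0.43 ± 0.15) was lost when any 1 of the 4 libraries was left out (edgeR adjusted p between 0.0582 and 0.1702).

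Among the 9 tested gates Trp53inp1 had its highest means in the stem and lymphoid gates. It was at 25.5 ± 9.46, 23.4 ± 4.48 and 21.3 ± 2.88 CPM in the T/NK/innate lymphoid, Lymphoid-primed and HSC gates, and between 4.81 ± 1.54 and 13.2 ± 2.80 CPM in the other 6. In the HSC gate it was at 19.8 and 22.2 CPM in the Yoda1 libraries, against 18.3 and 24.8 CPM in the Control libraries. The log2 fold changes over other cells were 1.05 ± 0.24, 1.17 ± 0.15 and 0.80 ± 0.16 in those 3 gates (edgeR adjusted p = 1.89e-04, 4.10e-04 and 0.00194). They were below 0 and passed the test in the Megakaryocyte (-1.25 ± 0.10), Monocyte (-1.09 ± 0.11) and Erythroid (-0.67 ± 0.09) gates. Without Control replicate 2 the T/NK/innate lymphoid call was lost (edgeR adjusted p = 0.0971). Over all cells Trp53inp1 was at 7.55 and 19.1 CPM in the Yoda1 libraries, against 7.43 and 12.8 CPM in the Control libraries. The HSC gate held 10.4% and 34.02% of the Yoda1 cells, against 6.51% and 9.26% of the Control cells. The part of the gate mix in these levels was not tested. Trp53inp1 was also lower in cells with at least 3 of 10 cycling markers than in cells with none (-1.57 ± 0.16). The part of cycling in its gate differences was not tested.

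**Figure D3:**
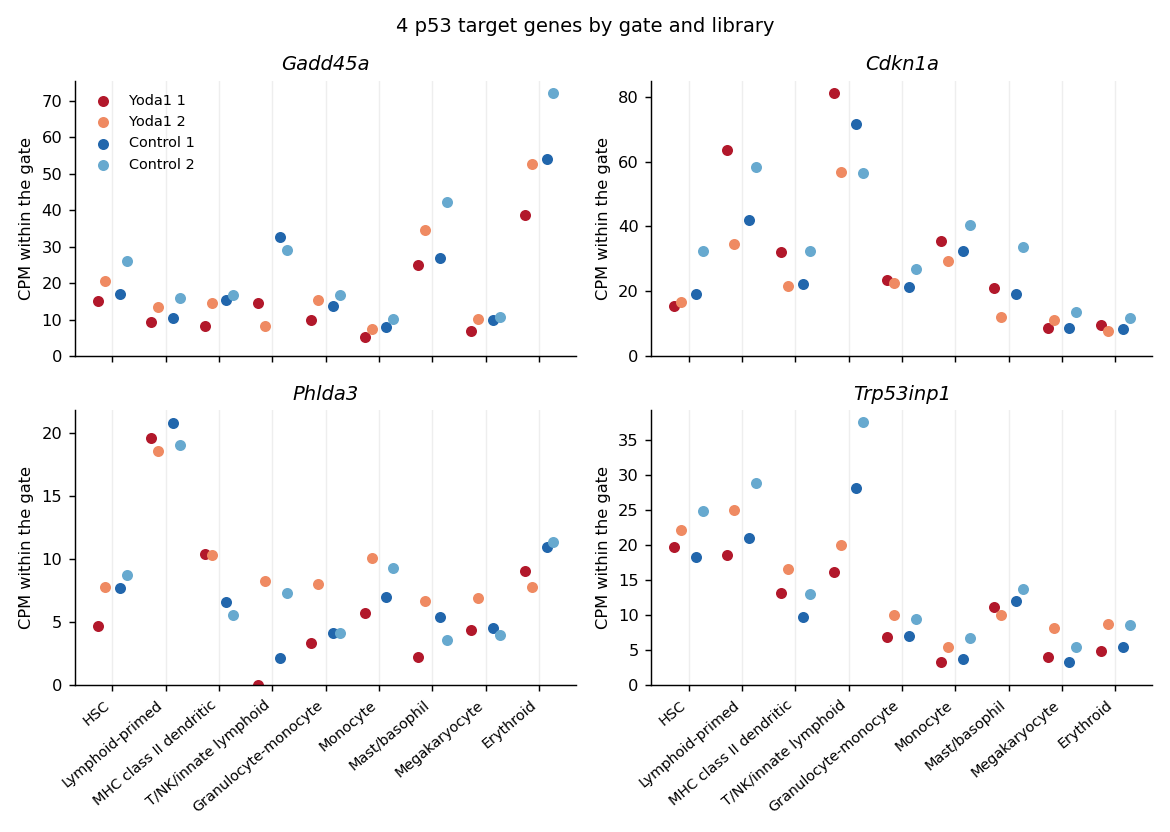
Level of Gadd45a, Cdkn1a, Phlda3 and Trp53inp1 in CPM within each gate, 1 point per library, with the 2 Yoda1 libraries (red and orange) left of the 2 Control libraries (dark and light blue). Phlda3 lies between 18.5 and 20.7 CPM in all 4 libraries in the Lymphoid-primed gate and Gadd45a is highest in the Erythroid gate.

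Likeness was measured as Pearson's r of log2(CPM + 5) over the 36 profiles of 4 libraries by 9 gates, which share libraries and are not independent, for the 7 members averaging 10 CPM or more. The transcripts most like Gadd45a were Prkab1 (0.93), Aplp2 (0.86) and Emc9 (0.85), those most like Trp53inp1 were Rhoh (0.95), Ypel3 (0.94) and Ptprcap (0.93), and those most like Bax were Nedd8 (0.90), Psmb4 (0.89) and Timm23 (0.88). Those most like Cdkn1a were Gm4258 (0.88), A130050O07Rik (0.88) and Gm37298 (0.87), and those most like Mdm2 were Nfat5 (0.87), Phf21a (0.86) and Zfhx2 (0.86). Among the members themselves the closest pair was Bbc3 with Mdm2 (0.74), followed by Mdm2 with Trp53inp1 (0.62) and Cdkn1a with Trp53inp1 (0.58). Cdkn1a with Ccng1 (-0.65) and Bax with Mdm2 (-0.66) ran in opposite directions.

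The other p53 targets also moved in both directions between gates, and those named are called genes with the smallest p. In the Erythroid, Lymphoid-primed and HSC gates 62.9%, 42.9% and 65.7% of them were called, beside 56.4%, 34.4% and 47.3% of all genes. In the Erythroid gate edgeR called 7 higher and 15 lower of 35 tested, among them Aen, an apoptosis-enhancing nuclease (0.65 ± 0.05), on the higher side and Xpc, a DNA damage sensor of nucleotide excision repair (-1.22 ± 0.06), and Tigar, a regulator of glycolysis (-2.29 ± 0.13), on the lower side. In the Lymphoid-primed gate it called 9 higher and 6 lower of 35, with Btg2, an antiproliferative gene (0.92 ± 0.06), Xpc (0.81 ± 0.06) and the sestrin gene Sesn1 (0.94 ± 0.10) higher. In the HSC gate the counts were 13 higher and 10 lower of 35, with Ndn, which encodes necdin (2.26 ± 0.27), and the non-coding RNA gene Trp53cor1 (0.92 ± 0.15) higher and Rps27l, a ribosomal protein relative (-0.72 ± 0.07), lower. The upstream regulators were called 7 higher and 2 lower of 12 in the Erythroid gate (75%, beside 56.4% of all genes). The checkpoint kinase genes Chek2 (0.64 ± 0.05) and Atr (0.37 ± 0.05) were among those higher. Of the relatives of the members, Cdkn1c, a stem cell inhibitor of the same family as Cdkn1a, was higher in the HSC gate (2.35 ± 0.21) where Cdkn1a was at -0.55 ± 0.13, and Gadd45g was higher in the Megakaryocyte gate (1.94 ± 0.09) where Gadd45a was lower (-1.27 ± 0.11). Median log2 fold changes of the members over each gate lay between -0.29 (Monocyte) and 0.48 (Erythroid), beside medians of all genes between -0.07 and 0.02.

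Several members act on the cell cycle, so cells with at least 3 of 10 cycling markers were compared with cells that had none of them, inside each library. Bbc3 and Trp53inp1 had the largest differences of the members, both lower in cycling cells. Bbc3 was at 7.64, 10.8, 9.44 and 8.18 CPM in cycling cells of Yoda1 replicates 1 and 2 and Control replicates 1 and 2, against 23.1, 24.98, 27.2 and 24.1 CPM in their non-cycling cells. Trp53inp1 was at 4.95, 13.7, 5.21 and 7.64 CPM in cycling cells, in the same order, against 22.3, 27.4, 22.1 and 28.7 CPM in non-cycling cells. For both genes the cycling value was below the non-cycling value in 4 of 4 libraries, with log2 fold changes of -1.29 ± 0.08 and -1.57 ± 0.16 (edgeR adjusted p = 5.44e-07 and 1.37e-05).

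In all, edgeR called 7 of 9 members tested, while 58.3% of all genes were called. Zmat3 (-0.66 ± 0.14), Gadd45a (-0.32 ± 0.07) and Mdm2 (-0.21 ± 0.06) were also lower in cycling cells, in 4 of 4 libraries each. The Mdm2 call was lost without Control replicate 2 or Yoda1 replicate 1 (edgeR adjusted p = 0.0608 and 0.0592). Bax was higher in 4 of 4 (0.39 ± 0.06, 159.7, 122, 151 and 148 CPM in cycling cells against 133, 109.9, 124 and 129.6 CPM in non-cycling cells). Cdkn1a was called higher (0.33 ± 0.12, edgeR adjusted p = 0.0348) but was higher in CPM in both Yoda1 libraries and lower in both Control libraries, at 24.7, 26.6, 18.8 and 27.8 CPM in cycling cells against 20.3, 17.1, 22.7 and 29.7 CPM in non-cycling cells. Its call was lost with scaling to library size (0.16, edgeR adjusted p = 0.328), which moved the median of all genes by -0.17, and without Yoda1 replicate 1 or 2 (adjusted p = 0.0903 and 0.156). Cycling cells were deeper, with medians of 12559 to 15288.5 UMIs per library against 5181 to 5704 in non-cycling cells, and the part of depth in these differences was not tested.

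**Figure D4:**
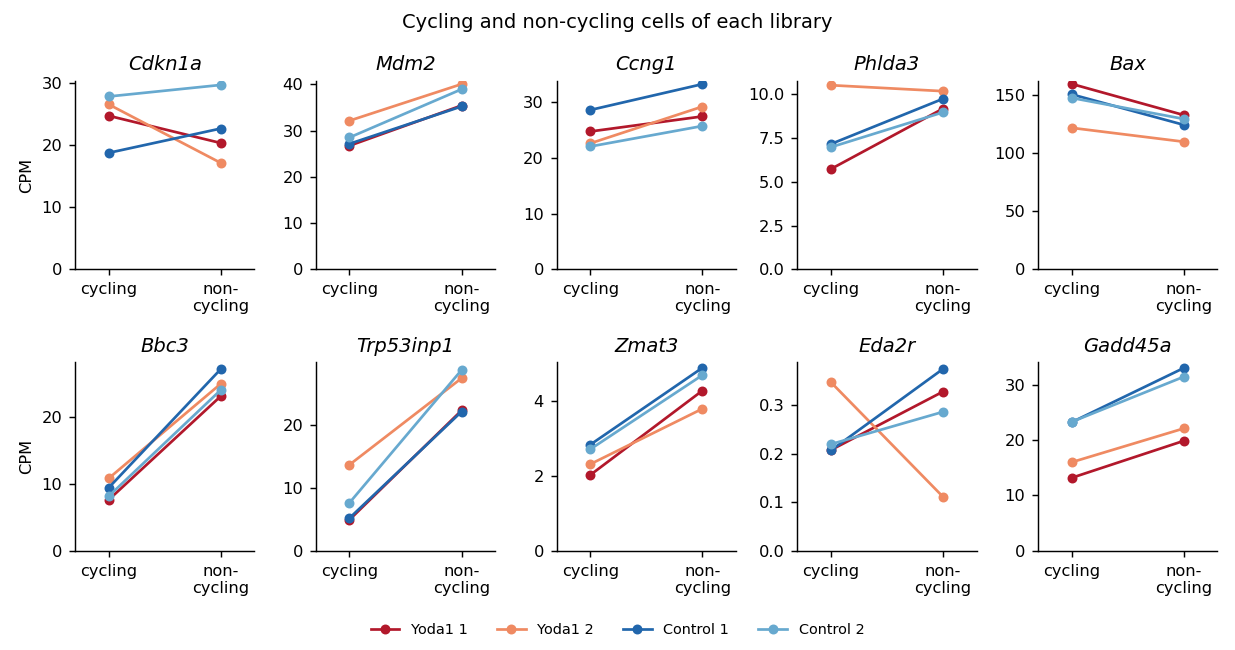
Level of each p53 target gene in CPM in cycling (left) and non-cycling (right) cells, 1 line per library (Yoda1 red and orange, Control dark and light blue), each axis starting at 0. Bbc3 and Trp53inp1 lie lower in cycling cells in all 4 libraries, Bax lies higher in all 4, and Cdkn1a lies higher in cycling cells in both Yoda1 libraries and lower in both Control libraries.

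Within single gates the same comparison could be made in 4. Bbc3 was lower in cycling cells, with log2 fold changes of -1.07 ± 0.14, -1.17 ± 0.18, -1.80 ± 0.16 and -1.23 ± 0.23 in the HSC, Lymphoid-primed, Granulocyte-monocyte and Megakaryocyte gates, and Trp53inp1 with -0.52 ± 0.13, -1.05 ± 0.13, -2.07 ± 0.18 and -1.27 ± 0.41. All 8 passed edgeR's test. In those gates it called 43.5%, 39.5%, 57.4% and 20.5% of all genes, and 4, 4, 5 and 2 members. Cdkn1a in the HSC gate was at 16.6, 21.1, 20.6 and 36.6 CPM in cycling cells of Yoda1 replicates 1 and 2 and Control replicates 1 and 2, against 7.11, 11.6, 15.4 and 26.3 CPM in non-cycling cells. It was higher in cycling cells in 4 of 4 libraries (0.79 ± 0.14, edgeR adjusted p = 6.40e-06). In the Lymphoid-primed gate it was higher in 3 of 4 (0.75 ± 0.11, edgeR adjusted p = 2.23e-09), in the Granulocyte-monocyte gate the difference was 0.04 ± 0.15 and in the Megakaryocyte gate -0.48 ± 0.30, neither of which passed. Bax was higher in the Granulocyte-monocyte gate (0.41 ± 0.07) and at -0.03 ± 0.06 and -0.01 ± 0.07 in the HSC and Lymphoid-primed gates. Whether these differences vary between gates was not tested.

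Other p53 targets were called 12 higher and 17 lower of 35 tested between cycling and non-cycling cells (82.9%, beside 58.3% of all genes). Those higher in cycling cells were led by Gtse1 (3.81 ± 0.18), Ckap2 (2.63 ± 0.15) and Psrc1 (1.93 ± 0.16), which act in mitosis or on microtubules, and those lower by Ddit4, an inhibitor of mTOR signalling (-1.59 ± 0.11), Btg2 (-1.12 ± 0.08) and Trp53cor1 (-2.03 ± 0.15). Of the upstream regulators, Chek1 (1.28 ± 0.13) and Chek2 (1.05 ± 0.08) were higher in cycling cells and Trp53 slightly so (0.19 ± 0.05). Cdkn1b (-0.54 ± 0.06) and Cdkn1c (-1.39 ± 0.19), the family members of Cdkn1a, were lower. All 10 tested immediate early and stress genes were lower in cycling cells (median -1.39), and their part in the members' differences was not tested.

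Cells holding at least 1 Cdkn1a UMI among 3000 thinned UMIs were compared with cells holding none, to see whether the other 9 genes were higher in the same cells. There were 606 and 500 such cells in the Yoda1 libraries, against 451 and 612 in the Control libraries. Phlda3 was at 13.8, 14.5, 14.3 and 17.6 CPM in the Cdkn1a-positive cells of Yoda1 replicates 1 and 2 and Control replicates 1 and 2, against 5.78, 10.5, 7.31 and 7.33 CPM in the negative cells, higher in 4 of 4 libraries (0.99 ± 0.12, edgeR adjusted p = 5.06e-06). Eda2r, with 18 UMIs in positive cells, was also higher in 4 of 4 (1.65 ± 0.47, edgeR adjusted p = 0.0235), and so was Trp53inp1 (0.36 ± 0.11, edgeR adjusted p = 0.0274). Gadd45a was lower, at 10.7, 14.3, 13.6 and 20.9 CPM in positive cells against 14.4, 18.7, 24.9 and 26.4 CPM in negative cells (-0.51 ± 0.09, edgeR adjusted p = 5.68e-04). Mdm2, the classical co-target, did not pass (0.06 ± 0.06), nor did Bax (0.01 ± 0.04), Bbc3 (0.11 ± 0.11), Ccng1 (-0.05 ± 0.06) or Zmat3 (0.30 ± 0.19). These are 4 calls of 9, while 12.0% of all genes were called. The Trp53inp1 call was lost without either Control library (adjusted p = 0.192 and 0.127) and the Eda2r call without Yoda1 replicate 1 (adjusted p = 0.279).

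The positive cells had another mix of gates. The Lymphoid-primed gate held 21.1%, 32.2%, 14.9% and 23.4% of the positive cells of Yoda1 replicates 1 and 2 and Control replicates 1 and 2, against 7.47%, 21.6%, 7.29% and 13.9% of the negative cells. The Erythroid gate, high in Gadd45a, held between 0.800% and 9.09% of the positive cells, against 3.14% to 24.5% of the negative cells. Split within the HSC, Lymphoid-primed and Granulocyte-monocyte gates, 0 of 7 members tested passed in each (background 0.207%, 1.49% and 1.8% of all genes). Phlda3 stood at 1.24 ± 0.33 in the HSC gate (edgeR adjusted p = 0.0620), higher in 4 of 4 libraries with 18 to 128 positive cells each, at 0.87 ± 0.34 in the Granulocyte-monocyte gate (adjusted p = 0.238) and at 0.29 ± 0.16 in the Lymphoid-primed gate (adjusted p = 0.522). Gadd45a was at -0.18 ± 0.25, -0.16 ± 0.17 and 0.28 ± 0.19 in these gates.

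**Figure D5:**
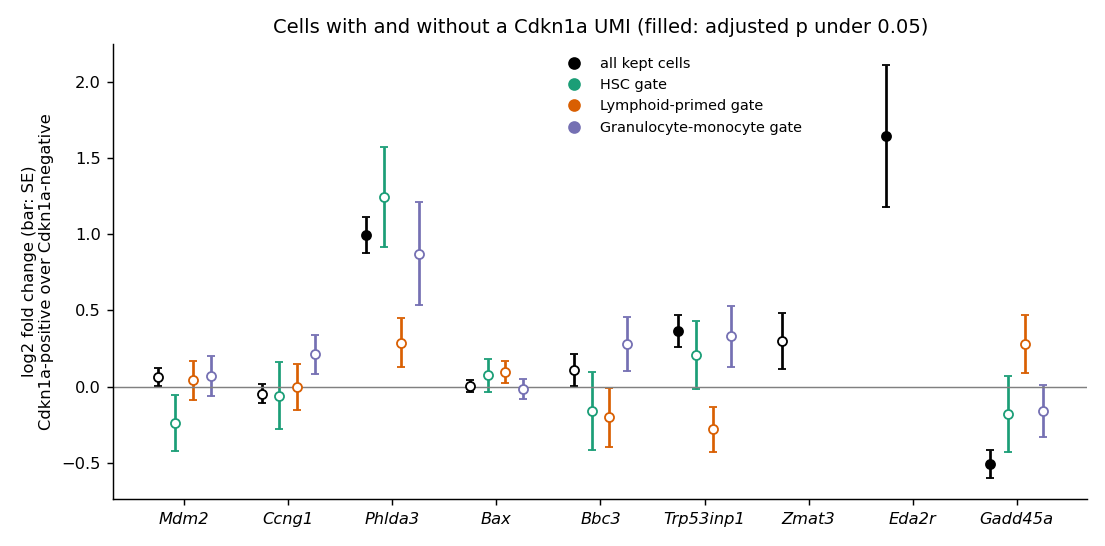
Log2 fold change of the other p53 target genes in Cdkn1a-positive over Cdkn1a-negative cells (points, with SE as bars), over all kept cells of sufficient depth (black) and within 3 gates (colours); filled points have an edgeR adjusted p under 0.05. Phlda3 (0.99) and Eda2r (1.65) lie highest over all cells, Gadd45a lies at -0.51, and no within-gate point is filled.

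Of the other p53 targets, 5 higher and 0 lower of 35 were called in the positive cells (14.3%, near the 12.0% of all genes). They were led by Btg2 (0.35 ± 0.06), Trp53cor1 (0.62 ± 0.10), a non-coding RNA encoded next to Cdkn1a, and Plk2, a stress-responsive kinase gene (1.3 ± 0.26). Trp53 itself was at -0.06 ± 0.04. Bcl2, an inhibitor of apoptosis, was higher as well (0.56 ± 0.04) and Gadd45g lower (-0.88 ± 0.14). Of 11 stress and immediate early genes tested, 3 were higher (Fos, Zfp36 and Junb at 0.36 ± 0.07, 0.36 ± 0.08 and 0.24 ± 0.05), and their part in these differences was not tested.

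At equal depth the transcripts were sparse in single cells. Thinned to 3000 UMIs per cell, Gadd45a had a UMI in 4.44% and 5.44% of Yoda1 cells, against 6.91% and 7.60% of Control cells (13.7% and 14.1%, against 22.2% and 20.7%, without thinning). The exact 95% intervals of these shares, which cover counting error only, ran from 4.02% to 5.92% over the Yoda1 libraries and from 6.34% to 8.22% over the Control libraries. With 6 arrangements of the libraries an exact permutation test, two-sided, gave p = 0.3333, the smallest it can give. Gadd45a was the 1 member of 10 whose groups did not overlap in the thinned share, while 23.6% of the 18182 genes did not. Without thinning, Gadd45a, Mdm2 and Zmat3 did not overlap, and 28.4% of the genes did not. Cdkn1a had a UMI in 6.76% and 5.37% of Yoda1 cells, against 6.10% and 8.08% of Control cells (exact permutation p = 0.667). Cells without any member's UMI made up 44.8% and 45.2% of Yoda1 cells, against 44.1% and 42.7% of Control cells. Cells with UMIs of 4 or more of the 10 numbered 17 and 19 in the Yoda1 libraries, against 35 and 33 in the Control libraries. These were 0.190% and 0.204% of the thinned Yoda1 cells, against 0.473% and 0.436% of the thinned Control cells. The shares with none and with 4 or more of the 10 were not tested or compared with other sets of genes.

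Barcodes above the 10% mitochondrial limit, 294 and 176 in the Yoda1 libraries, against 288 and 399 in the Control libraries, were compared with kept cells as a measure of RNA quality. edgeR called 6 of the 10 members, all lower in the high mitochondrial barcodes, where 47.0% of all genes were called and 27.5% were called lower. Phlda3 (-1.70 ± 0.49), Gadd45a (-1.3 ± 0.28), Bax (-1.19 ± 0.13), Bbc3 (-1.12 ± 0.35), Cdkn1a (-1.07 ± 0.25) and Ccng1 (-0.71 ± 0.23) were those 6. Without Yoda1 replicate 1 the calls of Bbc3 and Ccng1 were lost (edgeR adjusted p = 0.0570 and 0.1496). With scaling to library size, which moved the median of all genes by 0.51, the calls of Bbc3, Cdkn1a and Ccng1 were lost and Mdm2 was called higher (0.43). In the main test Mdm2 did not pass and had the other sign (-0.08 ± 0.18, edgeR adjusted p = 0.767). Its CPM, which are scaled to library size alone, were 47.3, 42.3, 34.04 and 39.9 in the high mitochondrial barcodes of Yoda1 replicates 1 and 2 and Control replicates 1 and 2. In kept cells they were 27.4, 35.4, 28.4 and 31.1. Trp53 was lower (-1.15 ± 0.13) and Mdm4 higher (1.42 ± 0.12) in these barcodes.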

How the data were processed

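Single-cell RNA-seq was measured in 4 libraries, grouped by the treatment label. The deposited matrices hold raw counts of UMIs per gene and barcode, not normalized, written by Cell Ranger 7.1.0 per the file headers. Seurat 4.3.0 and GRCm38 are named in the submitters' processing notes. Both 10x Genomics and another company's microwell chip appear in the labels, which leaves the platform uncertain. Annotation release, strand and intron handling are not given in the sources used here. Depth was 89058521 to 110493533 UMIs per library.

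UMIs were summed per library and gate or state, filtered with filterByExpr and scaled by TMM. The test was the quasi-likelihood test of edgeR 4.0.16 in R 4.3.3, with Benjamini-Hochberg adjustment over all genes tested and a threshold of 0.05. Gate and state comparisons had library as a block. The SE is the unshrunk log2 fold change over the square root of F. Gates used the mean scaled log level of markers over counts per 10000. All markers of the tested gates were at least 2-fold higher in their gate except 1 T/NK/innate lymphoid marker. Since the same markers assigned the cells, this is no separate check of the gates. No cell was removed as a doublet and no caller was run; leaving out the 5% of cells with the most UMIs is an alternative. Cycling cells had at least 3 of 10 markers. Gene positions are those of whole genes in GENCODE M21 (GRCm38). The scripts were tested on simulated data. Alternatives were RLE and library-size scaling, no filter, DESeq2 1.42.0, limma-voom (limma 3.58.1), the replicate number as a block, stricter cells and each library left out.

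The members, the gene lists and the tests were chosen with earlier results of these data known. Named genes are all members, up to 3 called genes of smallest p per list and direction in a comparison, and Trp53, Mdm4 and Ppm1d; a few were left out for brevity. Within-gate cycling and Cdkn1a splits outside the HSC gate, equal gate weights and library-size scaling were added after seeing the data. Gm45808, which shares exon sequence with Bax on the same strand, had 0 UMIs.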

Additional observations from a re-analysis of the deposited data

How the results depend on the processing

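Over all alternatives run, 0 members were called between Yoda1 and Control over all cells, within gates and in the interaction test. The 39 member calls between gates became 35 to 49. Calls between cycling and non-cycling cells numbered 4 within the HSC gate, 4 within the Lymphoid-primed gate and 2 within the Megakaryocyte gate, where fewer cells enter, against 7 over all cells. The Cdkn1a-positive comparison had 4 calls, 2 with the split on unthinned UMIs and 0 within each of the HSC, Lymphoid-primed and Granulocyte-monocyte gates. Members whose groups did not overlap in the share of cells with a UMI were 1 of 10 with thinning (23.6% of all genes) and 3 of 10 without it (28.4%). Counts over all genes depended on single libraries: between Yoda1 and Control they were 0 with all libraries and 0 to 938 with 1 left out (938 without Yoda1 replicate 1, 209 without Yoda1 replicate 2), and in the interaction test they were 63 with all libraries, 2 to 669 with 1 left out (2 without Control replicate 1, 16 without Control replicate 2, 235 without Yoda1 replicate 2 and 669 without Yoda1 replicate 1) and 983 with no filter. Within gates 10 genes were called in all, 143 to 1061 with 1 library left out, 1177 with no filter, 66 with DESeq2, 3 without the deepest cells and 5 with 4 markers per gate, where the T/NK/innate lymphoid gate was too small to test.

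None of the treatment values of the members passed the test, and several changed sign. With each library left out the log2 fold changes ranged over -0.32 to 0.19 for Cdkn1a, -0.0496 to 0.0858 for Mdm2, -0.34 to 0.14 for Ccng1, -0.24 to 0.27 for Phlda3, -0.47 to 0.16 for Bax, -0.16 to 0.29 for Bbc3, -0.34 to 0.76 for Trp53inp1 and -0.0812 to 0.18 for Eda2r. Gadd45a ranged over -0.51 to 0.0630, -0.45 to 0.16 and -0.52 to 0.15 in the HSC, Lymphoid-primed and Mast/basophil gates. DESeq2 gave -0.00247959 for Mdm2. With every gate weighted equally Mdm2 was at -0.0066361, Bax at 0.0156, Bbc3 at -0.0741 and Trp53inp1 at -0.20. Between cycling and non-cycling cells Bax was at -0.0269 in the HSC gate, -0.00520815 in the Lymphoid-primed gate and -0.16 in the Megakaryocyte gate, and Cdkn1a at -0.48 in the Megakaryocyte gate. In the Cdkn1a-positive cells of the Lymphoid-primed gate Trp53inp1 was at -0.28 and Gadd45a at 0.28. The cause of these changes was not tested.

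Replicate numbers are shared by the groups, but no label says that they pair the libraries. Same-numbered libraries deviated together (Pearson r = 0.51 over 8378 genes, 2 pairs). The 2 libraries of a group deviate from their mean by opposite amounts, so the 2 pairs are not independent and this r cannot show pairing. Replicate 2 had the smaller share of Erythroid-gate cells in both groups, and the part of the gate mix in this r was not tested. With the replicate block 0 members were called between Yoda1 and Control, over all cells and within gates, and the genes called were 0 over all cells and 392 within gates, against 10 without it. With the block the log2 fold change of Gadd45a over all cells was -0.68 (edgeR adjusted p = 0.301). With 2 libraries per group a missed threshold does not show that levels were equal, and Eda2r and Zmat3 are limited by their 22 to 323 UMIs per library.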

Other observations

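2 gates were too small to test and are given as values. The B-lineage gate, marked by early B cell genes such as Ebf1 and Pax5, held 1 and 113 cells in the Yoda1 libraries, against 17 and 143 in the Control libraries. In the libraries with more than 100 such cells Trp53inp1 was at 22.96 CPM in Yoda1 replicate 2, against 31.5 CPM in Control replicate 2, Cdkn1a at 64.3 CPM in Yoda1 replicate 2, against 62.4 CPM in Control replicate 2 and Bbc3 at 2.87 CPM in Yoda1 replicate 2, against 3.09 CPM in Control replicate 2, with Bax at 184 CPM in Yoda1 replicate 2, against 175 CPM in Control replicate 2. In the B-lineage gate the Bbc3 values rest on 5 UMIs in each of these 2 libraries. The Eosinophil gate held 13 and 6 cells in the Yoda1 libraries, against 31 and 26 in the Control libraries, with Gadd45a at 21.5 and 27.3 CPM in the Yoda1 libraries, against 23.9 and 50.4 CPM in the Control libraries. The Gadd45a values there rest on 6 and 2 UMIs in Yoda1, against 12 and 21 UMIs in Control. Cells that reached no gate numbered 347 and 1648 in the Yoda1 libraries, against 83 and 262 in the Control libraries, and were shallower, with medians of 3907 to 5310.0 UMIs. In them Bbc3 was at 25.3 and 21.3 CPM in the Yoda1 libraries, against 18.3 and 18.1 CPM in the Control libraries. The Bbc3 values rest on 42 and 199 UMIs in Yoda1, against 6 and 22 UMIs in Control. Cdkn1a lay the other way, at 19.3 and 18.0 CPM in the Yoda1 libraries, against 51.7 and 40.3 CPM in the Control libraries. Its values rest on 32 and 168 UMIs in Yoda1, against 17 and 49 UMIs in Control. Trp53inp1 was at 24.1 and 23.04 CPM in the Yoda1 libraries, against 24.3 and 34.5 CPM in the Control libraries, on 40 and 215 UMIs, against 8 and 42 UMIs. These values carry no test and no share over all genes beside them.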
